A study of Rattus norvegicus with 6 samples.

Results

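The genes described here are the collagens, taken as every gene whose symbol has the form Col, a number, the letter a and a number with nothing after it. The annotation held 43 such genes among 32883. They fall into 11 fibrillar chains, 6 type IV chains of the basement membrane network, 5 beaded filament chains of type VI, 9 fibril-associated chains, 3 short chain network chains, 2 multiplexins, 4 transmembrane collagens, 1 anchoring fibril chain and 2 others. Their transcripts were followed in fibroblast-like, mural, endothelial, mesothelial and epithelial cells of the rat pancreas, with lymphoid cells and macrophages beside them as cell classes not known as sources of fibrillar collagen.

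Collagens are secreted proteins in which 3 alpha chains wind into a triple helix. Fibrillar collagens such as types I, III and V pack into the fibres of the interstitial matrix and are made mainly by fibroblasts. Type IV collagen forms the sheet-like network under epithelia and around vessels, and multiplexins such as type XV and type XVIII collagen sit at the border between that sheet and the interstitium. Type VI collagen builds beaded microfilaments, and fibril-associated collagens such as types XII and XIV coat fibres without forming fibres of their own.

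Cells came from 6 male Wistar rats in 3 groups of 2. Young rats were 2 months old and had a normal diet. Old rats had a normal diet for 18 months, and HFHF-old rats had a high-fat high-fructose diet for 18 months, so that both were 20 months old. The pancreas was perfused with collagenase P through the bile duct and the fraction kept after a density gradient was used, so the stromal cells are those that stayed with this islet-enriched fraction. Each rat gave 1 library of 3′ ends, in which a UMI (unique molecular identifier) marks 1 captured transcript, and a transcript counts once whatever its length. Levels are CPM, the UMIs of a gene scaled to a common total of 1000000 UMIs for the cell class in each rat. With 2 rats a group, every test below rests on differences between single rats. In the tests of single genes the 3 groups of a class shared 1 estimate of spread. The HFHF-old rats therefore also enter the SE and p of old against young rats.

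The libraries held 78024 barcodes, of which 75201 were kept, with 77387928 to 166875258 UMIs per library and a median of 2537 to 9391.5 UMIs per cell. The library of HFHF-old rat 2 stood apart, since 9655 of its 11716 cells were lymphoid and it held only 2 mural cells and 14 macrophages. Fibroblast-like cells numbered 4536 and 346 in the young rats, 1500 and 2051 in the old rats and 3088 and 1140 in the HFHF-old rats. Pairs of libraries shared 20 to 64 cell barcodes, at most 0.623% of the smaller library. Cell classes were rebuilt by clustering without the 125 genes of the collagen and partner lists, and named from marker genes, so values by class may differ from those of the study. Summed levels of the 8 fibroblast markers lay between 14650 and 20600 CPM in the fibroblast-like class of every rat. The class also held sub-clusters led by acinar, natural killer and macrophage genes, and its summed acinar markers ran from 544 CPM in HFHF-old rat 2 to 10260 CPM in HFHF-old rat 1. The part of these transcripts in the results was not tested, and values for 3 fibroblast subsets without those sub-clusters are given beside them.

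The sequence just before the start of 4 collagen genes is shown to set fibrillar genes beside type IV genes, which lie in the genome in head-to-head pairs. The 34 of 43 genes with an entry in the RefSeq promoter table (build GRCr8) were searched on both strands for CCAAT, for GGGCGG (the GC box) and for TATAAA. Each sequence below holds the 250 bases before the annotated start, 5′ to 3′ on the strand of the gene, and capitals mark a CCAAT box or a GC box on either strand. Col5a1 (type V, fibrillar) lies on the plus strand at chr3:31606630-31606879, and Col5a3 (type V, fibrillar) on the minus strand at chr8:27625949-27626198. Col4a1 lies on the plus strand at chr16:84885347-84885596 and Col4a3 on the plus strand at chr9:91323740-91323989.
Col5a1: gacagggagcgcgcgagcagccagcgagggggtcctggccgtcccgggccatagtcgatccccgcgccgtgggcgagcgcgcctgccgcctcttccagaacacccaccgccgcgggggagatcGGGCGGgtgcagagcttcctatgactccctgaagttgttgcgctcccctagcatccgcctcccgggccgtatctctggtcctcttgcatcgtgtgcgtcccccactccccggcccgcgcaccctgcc
Col5a3: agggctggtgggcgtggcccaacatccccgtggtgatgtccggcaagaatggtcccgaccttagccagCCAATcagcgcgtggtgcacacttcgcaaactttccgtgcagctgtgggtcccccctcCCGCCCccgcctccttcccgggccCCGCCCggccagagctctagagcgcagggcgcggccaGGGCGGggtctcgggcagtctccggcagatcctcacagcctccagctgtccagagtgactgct
Col4a1: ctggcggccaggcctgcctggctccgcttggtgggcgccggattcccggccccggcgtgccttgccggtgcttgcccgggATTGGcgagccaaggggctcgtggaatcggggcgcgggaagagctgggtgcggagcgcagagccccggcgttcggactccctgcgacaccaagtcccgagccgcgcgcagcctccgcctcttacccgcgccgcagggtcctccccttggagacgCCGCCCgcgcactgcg
Col4a3: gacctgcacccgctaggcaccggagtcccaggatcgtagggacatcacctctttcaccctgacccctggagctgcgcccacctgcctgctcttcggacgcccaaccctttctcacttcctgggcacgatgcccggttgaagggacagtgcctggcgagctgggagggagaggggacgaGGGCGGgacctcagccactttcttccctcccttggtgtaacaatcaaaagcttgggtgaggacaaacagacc

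Col5a3 held 1 CCAAT box and 3 GC boxes in this window, and Col5a1 held 1 GC box and no CCAAT box. Col4a1 held 1 CCAAT box and 1 GC box, and Col4a3 held 1 GC box. Among all collagen genes matched, 11 of 34 held a CCAAT box, 19 of 34 a GC box and 4 of 34 a TATAAA box, against 34.0%, 30.5% and 12.9% of the 33469 promoters in the table. A collagen gene counted if any of its promoters held the motif, whereas the shares are of single promoters, so the units are unlike. The starts of Col4a1 and Col4a2 lay 77 bases apart on opposite strands of chromosome 16, so that 76 bases of these upstream windows were shared. Col4a3 and Col4a4 were 413 bases apart on chromosome 9 with 88 bases shared, and Col4a5 and Col4a6 were 1415 bases apart on chromosome X with none shared. Such a match describes the letters of the window and says nothing about binding.

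Col3a1 was the most abundant collagen transcript in these pancreases. It gave 864797 UMIs over all cells, followed by Col1a1 with 359967, Col6a2 with 121950, Col14a1 with 105571, Col5a2 with 84741, Col4a1 with 68808 and Col12a1 with 53784. Fibroblast-like cells held 92.7% of the Col3a1 UMIs, 89.8% of those of Col1a1, 95.5% of those of Col12a1 and 73.2% of those of Col4a1. At the other end, Col23a1 had no UMI in any cell, and 14 of the 43 genes, Col23a1 included, had fewer than 500 UMIs in all (the others are Col2a1, Col4a6, Col6a4, Col7a1, Col9a2, Col9a3, Col10a1, Col11a1, Col11a2, Col22a1, Col24a1, Col25a1 and Col28a1). Col1a2, the partner chain of Col1a1 in type I collagen, had only 11280 UMIs (rank 17). In fibroblast-like cells, Col1a1 UMIs were 32.1 and 39.0 times those of Col1a2 in the young rats, 24.7 and 15.8 times in the old rats and 38.9 and 39.8 times in the HFHF-old rats. Col4a1 likewise exceeded its partner Col4a2 by 7.29 to 14.9 times. Levels of different genes in 3′ libraries also depend on how well the annotation covers each 3′ end, so these ratios are read across rats and not as chain numbers in the protein.

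Collagen transcripts took 2.28% and 2.77% of all UMIs in fibroblast-like cells of the young rats, 0.902% and 0.564% in the old rats and 1.51% and 0.559% in the HFHF-old rats. Both young rats were above every other rat. In mesothelial cells the share was 1.00% in young rat 1, 0.445% and 0.235% in the old rats and 0.586% in HFHF-old rat 1, the other rats having fewer than 10 such cells. Most mesothelial cells of old rat 2 and HFHF-old rat 1 were marked as doublets, as given below with the mesothelial levels. Endothelial cells gave 0.520% and 0.403%, then 0.220% and 0.164%, then 0.33% and 0.142% across young, old and HFHF-old rats, and mural cells 0.123% to 0.411% over the 5 rats with enough cells. The class named ductal lay at 0.0536% to 0.314%, and endocrine cells at 0.0110% to 0.0762%. The ductal class joins a cluster of 426 cells led by Cftr, with Spp1 and Sox9 also among its 10 leading genes, and a cluster of 589 cells led by Lrrc7 and Rbpjl, in which Epcam was the only leading ductal marker. Rbpjl is a factor of acinar cells, so the ductal name is not borne out for the larger cluster, and both are described apart where single genes are given. Lymphoid cells, not known as a source of fibrillar collagen, still showed 0.00456% to 0.0231%, and their share was highest in young rat 1 and HFHF-old rat 1. Differences between cell classes are described without a test, since the classes were defined in these same cells.

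**Figure D1:**
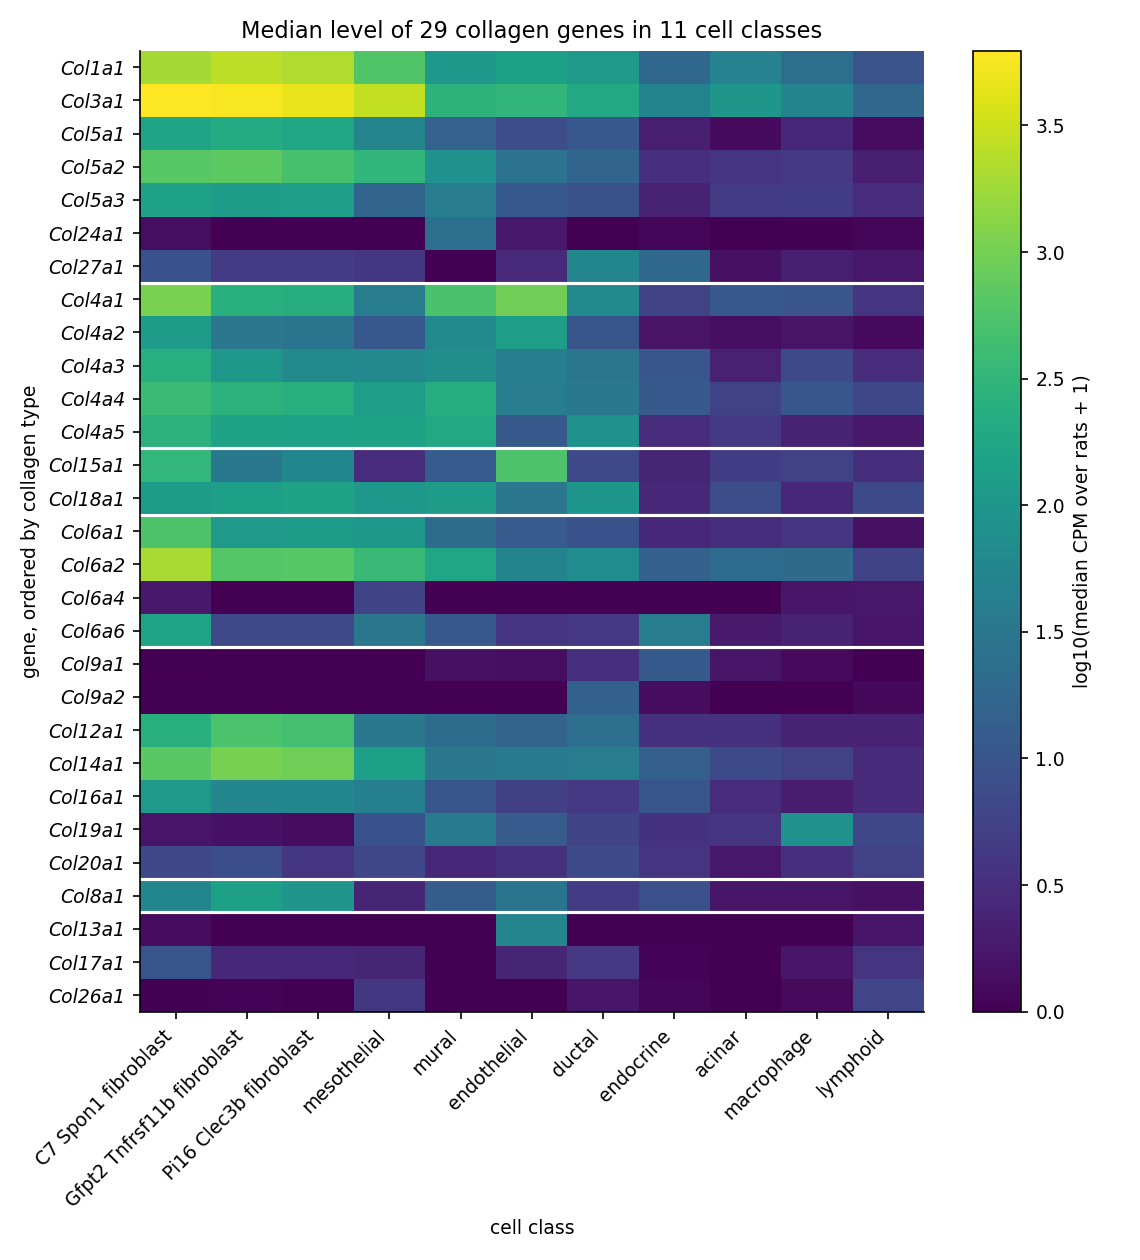
Collagen levels by cell class. Rows are the 29 collagen genes that held at least 1% of the collagen UMIs of a class, columns are cell classes, and colour is log10 of the median CPM over rats plus 1. Col3a1 and Col1a1 are high in fibroblast-like and mesothelial cells, and Col4a1 is highest in the C7 Spon1 subset and endothelial cells. The ductal column joins the Cftr and the Lrrc7 Rbpjl clusters.

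Pooled over rats, collagen profiles differed between fibroblast-like, endothelial and mural cells, whereas acinar cells (43.3% Col3a1 and 18.8% Col1a1) were close to fibroblast-like cells. HFHF-old rat 1 gave 7629 of the acinar collagen UMIs, against 1 to 1947 in the other rats. Here and below, shares of single genes among collagen UMIs pool the rats, so rats with more UMIs count more. In fibroblast-like cells young rat 1 gave 759466 collagen UMIs and HFHF-old rat 1 673396, against 39808 to 127085 in the other rats. Of the collagen UMIs in fibroblast-like cells, 46.1% were Col3a1, 18.6% Col1a1, 6.41% Col6a2, 5.76% Col14a1 and 2.90% Col4a1. The order varied between rats, and in HFHF-old rat 2 Col1a1 lay below Col6a2, Col12a1 and Col14a1. Mesothelial cells, the flat lining of the pancreas surface, were led by Col3a1 as well, with 56.9%. In endothelial cells Col4a1 led with 36.9%, followed by Col3a1 with 18.6% and Col15a1 with 16.7%. Col4a1 led in every rat. Col15a1 was below Col3a1 only in young rat 1, which gave 15652 endothelial collagen UMIs, and in HFHF-old rat 1. Mural cells, the muscle cells and pericytes of vessel walls, divided their collagen UMIs between Col3a1 (18.7%), Col4a1 (17.5%), Col1a1 (11.4%) and Col4a5 (11.1%). There Col3a1 was above Col4a1 in both young rats and below it in both old rats.

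Several rarer members were concentrated in 1 class. Col13a1, a transmembrane collagen, had a median of 51.7 CPM in endothelial cells and at most 3.06 CPM in any rat in every other class or subset. Col24a1, a fibrillar collagen, lay at 10.3 to 56.6 CPM in mural cells and at no more than 2.33 CPM elsewhere. Col19a1, a fibril-associated collagen, was highest in macrophages, with 52.1 to 147 CPM, where it made up 21.8% of collagen UMIs, and its median in mural cells was 37.0 CPM. Col9a1, a fibril-associated collagen best known from cartilage, had a median of 10.8 CPM in endocrine cells and at most 5.23 CPM in any rat in the other classes. Col27a1, a fibrillar collagen, was highest in the class named ductal with a median of 54.4 CPM (84.4 CPM in its Cftr cluster and 0 CPM in its Lrrc7 Rbpjl cluster), against 17.4 CPM in endocrine and 4.14 CPM in fibroblast-like cells. Col26a1 reached 21.6 CPM in lymphoid cells of young rat 1, where it was highest.

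In fibroblast-like cells, 29 of the 43 collagens had enough counts to be tested, which leaves 14 that were too low in this class. None of the 29 passed the call in old against young rats, set at an adjusted p under 0.05 and a change of over 1.5-fold by edgeR's quasi-likelihood test, where 0.0215% of the 13963 genes tested passed. Unadjusted p was under 0.05 for 9 of the 29, against 930 of all genes tested, and all 9 were lower in old rats (Col1a1, Col1a2, Col3a1, Col4a5, Col5a1, Col5a2, Col5a3, Col17a1 and Col18a1). Leaving out 1 rat gave 1 (without old rat 2), 4 (young rat 1), 5 (old rat 1), 7 (young rat 2) or 10 (either HFHF-old rat) in place of the 9. DESeq2 called 2 collagens, Col5a3 and Col5a2, both lower in old rats, beside 1.15% of all genes. Without the filter on low counts, edgeR called 7 of 42 collagens and 2.52% of all 21749 genes. The median log2 fold change of the collagens was −0.52, against −0.01 for all genes, and 22 were lower and 7 higher in old rats. In 13 of the 29 (44.8%) both old rats lay below both young rats, which was the case for 17.2% of all genes. A filter on low counts keeps a gene partly by the groups in which it is high, so these counts describe the genes tested and not all 43.

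The 5 lowest fold changes in old against young rats were those of fibrillar chains. Col1a1, which encodes the main chain of type I collagen, stood at 4648 and 7228 CPM in the young rats, 1223 and 440 CPM in the old rats and 2779 and 350 CPM in the HFHF-old rats. Col3a1, the single chain of type III collagen, stood at 11610 and 14366 CPM in the young rats, 3117 and 1614 CPM in the old rats and 6883 and 1102 CPM in the HFHF-old rats. Both genes were below the young range in each of the other 4 rats, and the HFHF-old rats lay on either side of the old rats. The log2 fold change in old against young rats was −2.87 ± 0.99 (SE) for Col1a1 (edgeR adjusted p = 0.671) and −2.48 ± 0.86 for Col3a1 (edgeR adjusted p = 0.671). Col1a2 gave 145 and 186 CPM, then 49.4 and 27.9 CPM, then 71.4 and 8.80 CPM in young, old and HFHF-old rats, with a log2 fold change of −2.11 ± 0.85 in old against young rats.

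The type V chains join type I fibres and help to set their width, and all 3 were lower in both old than in both young rats. Col5a3 was at 394 and 365 CPM in young rats, 50.7 and 96.3 CPM in old rats and 139 and 27.2 CPM in HFHF-old rats. The log2 fold change of Col5a3 in old against young rats was −2.37 ± 0.75 (edgeR adjusted p = 0.613), and all 4 rats of 20 months lay below the young rats. Col5a2 was at 1001 and 703 CPM in young rats, 427 and 357 CPM in old rats and 712 and 557 CPM in HFHF-old rats. Both HFHF-old rats were above both old rats for this gene, and HFHF-old rat 1 reached the young range. For Col5a2 the log2 fold change was −1.13 ± 0.32, and that of Col5a1 was −1.23 ± 0.47. Over the 8 fibrillar genes tested, 7 were lower in old rats, 6 of them with an unadjusted p under 0.05, and the median was −1.90. Col27a1, at 3.68 to 9.24 CPM, was the exception, with a log2 fold change of 0.51.

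**Figure D2:**
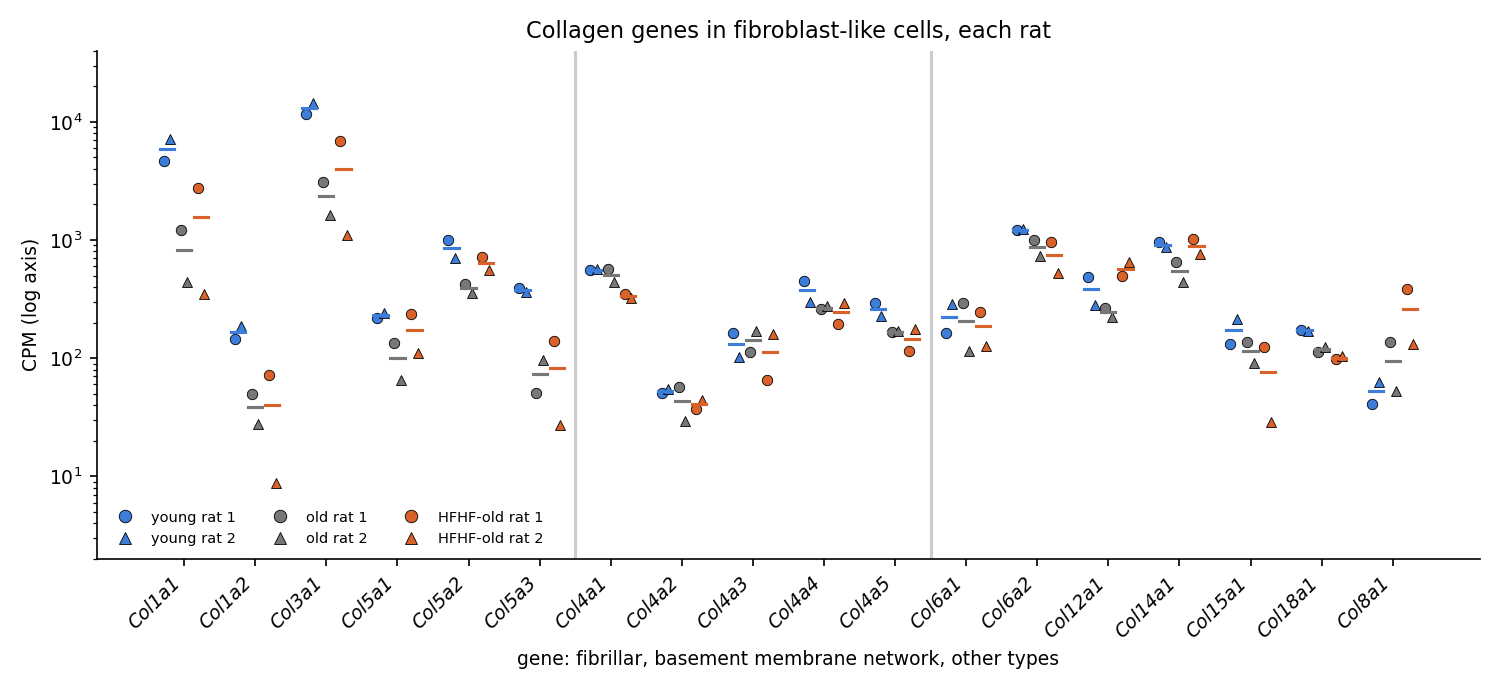
Levels of collagen genes in fibroblast-like cells. Points are single rats on a log scale of CPM, coloured by group; Col1a1, Col3a1 and Col5a3 of both young rats lie above the other 4 rats, whereas Col4a1 spans 326 to 572 CPM over all 6 rats.

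Type IV chains differed less. Col4a1 was at 555 and 570 CPM in the young rats, 572 and 439 CPM in the old rats and 352 and 326 CPM in the HFHF-old rats. The young and old rats overlapped, with a log2 fold change of −0.17 ± 0.27, and the HFHF-old rats were the lowest of all, with −0.60 ± 0.27 (edgeR adjusted p = 0.840). Col4a2, at 29.4 to 57.5 CPM, had a log2 fold change of −0.29 ± 0.31 in old against young rats. Col4a4 gave 454 and 300 CPM in young rats, 260 and 276 CPM in old rats and 196 and 295 CPM in HFHF-old rats, and Col4a5 gave 294 and 230, then 165 and 169, then 116 and 177 CPM. Their log2 fold changes in old against young rats were −0.50 ± 0.31 and −0.66 ± 0.27. Of the 6 type IV genes tested, 4 were lower in old rats, 1 of them with an unadjusted p under 0.05, and the median was −0.23. In the HFHF-old group all 6 were below the old group, none with an unadjusted p under 0.05 by edgeR, and with a median of −0.32, which was −0.0127 without HFHF-old rat 1 and −0.48 without HFHF-old rat 2.

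Among the remaining members, Col6a2, a chain of type VI collagen, was at 1210 and 1236 CPM in young rats, 998 and 734 CPM in old rats and 958 and 523 CPM in HFHF-old rats. Its log2 fold change in old against young rats was −0.52 ± 0.39, and that of Col6a1 was −0.15 ± 0.54. Col6a5, with 1538 UMIs over all cells, had 1.72, the highest of all collagens tested in this class. Its unadjusted p was not under 0.05 by edgeR. Col6a6, another type VI chain, was the only tested collagen whose old rats both lay above both young rats, with 29.9 and 65.8 CPM in young, 116 and 83.1 CPM in old and 41.5 and 19.5 CPM in HFHF-old rats. Its log2 fold change was 1.06 ± 0.50 in old against young rats and −1.69 ± 0.50 in HFHF-old against old rats (edgeR adjusted p = 0.817 and 0.658). The latter was −2.46 without HFHF-old rat 1 and −1.21 without HFHF-old rat 2. Fibroblast-like cells held 57.5% of the Col6a6 UMIs of all cells, and among the fibroblast subsets it was highest in C7 Spon1 cells. Their share of the cells of the class was highest in the old rats (34.4% and 22.4%, against 11.1% and 21.4% in young and 17.2% and 18.5% in HFHF-old rats). Their share of its UMIs was 31.2% and 21.5% in old, 11.9% and 23.0% in young and 16.5% and 14.4% in HFHF-old rats, so young and old rats overlapped. Within that subset Col6a6 was at 134 and 170 CPM in young, 283 and 254 CPM in old and 161 and 71.3 CPM in HFHF-old rats. The multiplexins Col15a1 and Col18a1, the latter the source of endostatin, had log2 fold changes of −0.60 ± 0.65 and −0.54 ± 0.22 in old against young rats. Col18a1 was at 174 and 170 CPM in young rats and between 97.5 and 125 CPM in the other 4. Col7a1, the anchoring fibril chain, stayed under 4.23 CPM in every rat.

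**Figure D3:**
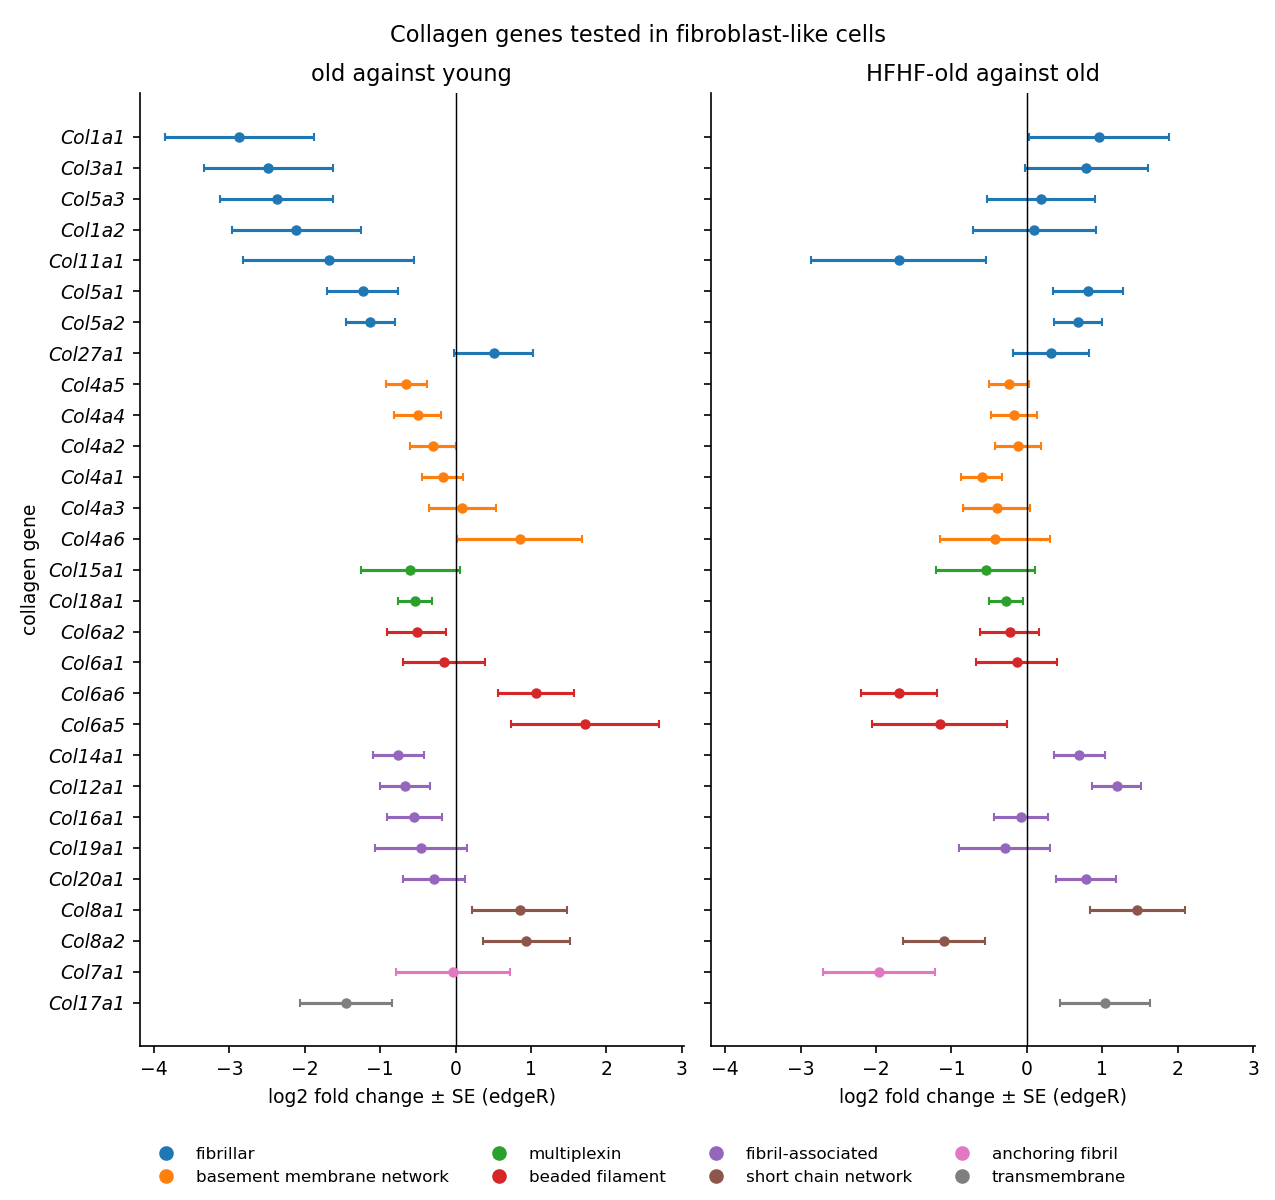
Log2 fold changes of the 29 collagen genes tested in fibroblast-like cells, with bars of 1 SE from edgeR, in old against young rats (left) and HFHF-old against old rats (right), coloured by collagen class. Fibrillar genes take the lowest values on the left, and Col12a1 and Col8a1 are highest on the right; no gene passed the adjusted threshold.

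In HFHF-old against old rats, none of the 29 collagens passed the call in fibroblast-like cells, beside 0.0215% of all genes. By edgeR 3 had an unadjusted p under 0.05 (Col12a1, higher in HFHF-old rats, and Col6a6 and Col7a1, lower in them), against 857 of the 13963 genes (1 without old rat 2, 9 without HFHF-old rat 1 and 11 without HFHF-old rat 2), and DESeq2 called 1, Col12a1, which was higher, beside 0.859% of all genes. The median log2 fold change was −0.14, against 0.02 for all genes, and its sign was set by which HFHF-old rat was used, with −0.75 without HFHF-old rat 1 and 0.19 without HFHF-old rat 2. Both HFHF-old rats lay above both old rats in 5 of the 29 (Col5a2, Col12a1, Col14a1, Col17a1 and Col20a1, or 17.2%, beside 18.6% of all genes) and below them in 6 (Col4a1, Col6a6, Col7a1, Col8a2, Col11a1 and Col18a1, or 20.7%, beside 18.5% of all genes), so the shares were near those of all genes. Col12a1, which bridges fibres and is known from tissues under tension, was at 489 and 284 CPM in young rats, 265 and 225 CPM in old rats and 496 and 651 CPM in HFHF-old rats. Its log2 fold change was 1.19 ± 0.33 in HFHF-old against old rats (edgeR adjusted p = 0.627), 1.29 without HFHF-old rat 1 and 1.06 without HFHF-old rat 2.

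Col8a1, a short chain collagen of vessel walls, was at 41.1 and 63.4 CPM in young rats, 137 and 52.9 CPM in old rats and 387 and 131 CPM in HFHF-old rats. HFHF-old rat 1 was highest, and HFHF-old rat 2 lay within the range of the old rats. The log2 fold change of Col8a1, 1.47 ± 0.63, became 0.36 without HFHF-old rat 1 and 2.08 without HFHF-old rat 2. Col14a1, which like Col12a1 decorates fibres, was at 954 and 868 CPM in young rats, 653 and 439 CPM in old rats and 1019 and 765 CPM in HFHF-old rats, a log2 fold change of 0.70 ± 0.33 in HFHF-old against old rats. For Col1a1 and Col3a1 the contrast was set by which HFHF-old rat was used. Col1a1 gave 0.96 ± 0.93 with both, −1.35 without HFHF-old rat 1 and 1.80 without HFHF-old rat 2. Col3a1 gave 0.79 ± 0.82, −1.21 and 1.60 in the same order.

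The balance of fibrillar against basement membrane collagen was taken as the summed UMIs of the 11 fibrillar genes over those of the 6 type IV genes. In fibroblast-like cells the ratio was 11.9 and 18.4 in the young rats, 4.29 and 2.40 in the old rats and 14.1 and 2.16 in the HFHF-old rats. On the log2 scale this was 3.89 ± 0.45 (SD, n = 2) in young and 1.68 ± 0.59 in old rats, a difference of −2.20 by an exact two-sided permutation test with p = 0.33, the smallest that 2 rats against 2 allow. Fibrillar UMIs ran from 18020 and 23109 CPM in the young rats to 5009 and 2608 CPM in the old rats. Type IV UMIs were also lower in both old rats, at 1168 and 1085 CPM against 1517 and 1257 CPM in the young rats. The HFHF-old rats, at 3.82 and 1.11, spanned the old rats, with a difference of 0.78 (exact permutation p = 1). That difference was −0.57 without HFHF-old rat 1 and 2.14 without HFHF-old rat 2. By subset it was −0.12 in Pi16 Clec3b, 0.11 in Gfpt2 Tnfrsf11b and 1.23 in C7 Spon1 cells (exact permutation p = 1, 1 and 0.667).

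**Figure D4:**
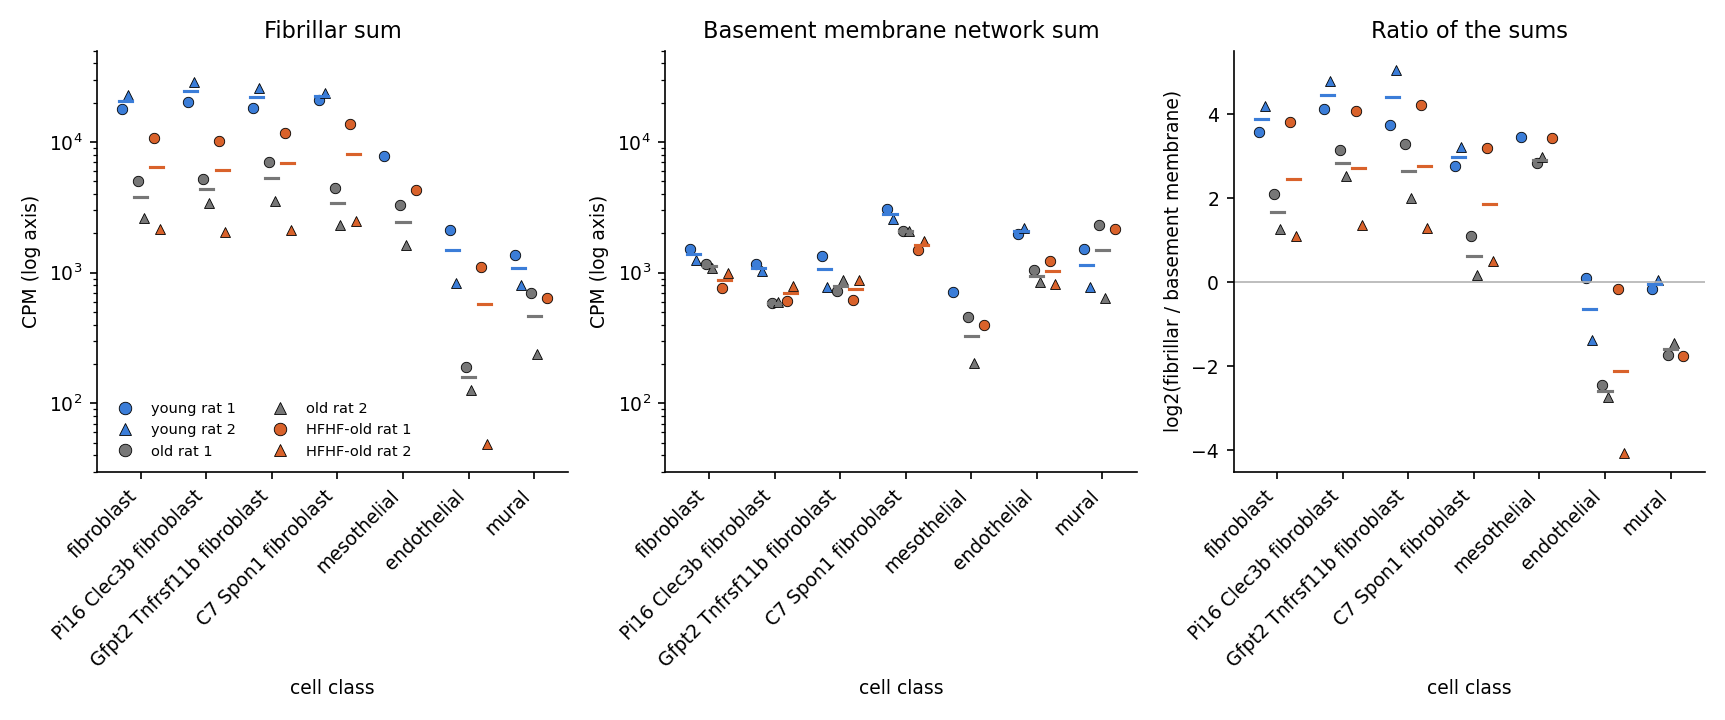
Summed fibrillar UMIs over summed type IV UMIs, as a log2 ratio, by cell class. Points are single rats and short lines are group means; in fibroblast-like cells the young rats lie at 3.57 and 4.20 and the old rats at 2.10 and 1.27, and the HFHF-old rats lie at 3.82 and 1.11.

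The lower ratio in old rats was also seen in each fibroblast subset. The difference was −1.63 in Pi16 Clec3b cells, −1.75 in Gfpt2 Tnfrsf11b cells and −2.36 in C7 Spon1 cells, each with the smallest exact permutation p of 0.33. Type IV UMIs were at 1160 and 1024 CPM in young and 589 and 592 CPM in old rats in Pi16 Clec3b cells, and at 3091 and 2565 CPM and 2100 and 2070 CPM in C7 Spon1 cells, lower in both old rats in each, whereas in Gfpt2 Tnfrsf11b cells, at 1347 and 771 CPM and 719 and 877 CPM, they overlapped. The subset richest in type IV collagen, C7 Spon1, made up more of the cells of the class in old rats, as given with Col6a6. Its share of the UMIs of the class overlapped between young rats (11.9% and 23.0%) and old rats (31.2% and 21.5%). The part of these shares in values of the whole class was not tested. Over these 3 subsets together, the difference in the ratio was −2.08. They leave out every unnamed sub-cluster, also 1 of 1500 cells led by the fibroblast marker Postn, and keep 1947 of the 4536 cells of young rat 1. The same direction appeared in lymphoid cells, with a difference of −1.32 from far fewer UMIs. Col3a1 in lymphoid cells was at 81.5 and 18.5 CPM in young rats, 14.8 and 4.40 CPM in old rats and 84.0 and 1.12 CPM in HFHF-old rats, lower in both old than in both young rats as in fibroblast-like cells. Lymphoid cells are taken as a measure of free RNA, and the part of free RNA in the ratios was not tested.

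The fibroblast subsets carry the names of their marker genes. Pi16 and Clec3b mark fibroblasts described around vessels in many organs, Gfpt2 and Tnfrsf11b mark the second subset, and C7 and Spon1 mark the third. The median level of C7 was 3163 CPM in the C7 Spon1 subset and at most 700 CPM in the other subsets, whereas Pi16 was at 4649 CPM in the Pi16 Clec3b subset and still at 4000 CPM in the Gfpt2 Tnfrsf11b subset, and Dpp4 and Cd55, listed as markers of the former, were higher in the latter (374 against 352 CPM and 1107 against 766 CPM). These last subsets are not sharply separated, and their names moved with the clustering. The following shares are of cells that were still fibroblast-like at resolution 2. There 33.5% of the Gfpt2 Tnfrsf11b cells were named Pi16 Clec3b, and 25.1% of the Pi16 Clec3b cells and 72.6% of the C7 Spon1 cells kept their name. The C7 Spon1 cells differed from the other subsets in their basement membrane and type VI genes. Col4a1 had a median of 1085 CPM there, against 231 and 255 CPM in the Pi16 Clec3b and Gfpt2 Tnfrsf11b cells. The median of Col15a1 was 327 CPM against 54.1 and 33.1 CPM, and that of Col6a6 165 CPM against 5.92 and 5.93 CPM. Col12a1 went the other way, with medians of 235 CPM in C7 Spon1 cells, 454 CPM in Pi16 Clec3b cells and 532 CPM in Gfpt2 Tnfrsf11b cells.

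No collagen passed the edgeR call in a subset. In old against young rats, the shares of all genes called were 0.0215% in Pi16 Clec3b cells, 0.0181% in Gfpt2 Tnfrsf11b cells and 0.027% in C7 Spon1 cells, and in HFHF-old against old rats they were 0.0323%, 0% and 0.009%. Unadjusted p was under 0.05 in old against young rats for 10 of 20 collagens tested in Pi16 Clec3b cells, 7 of 23 in Gfpt2 Tnfrsf11b cells and 10 of 28 in C7 Spon1 cells, against 418 of 9281, 558 of 11038 and 810 of 11111 genes. The comparison of HFHF-old with old rats gave 1 (Col8a1), 2 (Col12a1 and Col20a1) and 7 of them, against 632, 481 and 825 of all genes tested. With 1 rat left out the counts in the 3 subsets ran from 6 to 12, 3 to 14 and 6 to 12 in old against young rats, lowest without old rat 2 in the last 2 and without old rat 1 in the first, and from 0 to 5, 0 to 8 and 5 to 10 in HFHF-old against old rats. DESeq2 called Col5a3 in Pi16 Clec3b cells and Col12a1 and Col14a1 in C7 Spon1 cells, all 3 lower in old than young rats, beside 0.162% and 0.72% of all genes. DESeq2 also called Col12a1 and Col14a1 higher in HFHF-old than old rats in C7 Spon1 cells, beside 0.792% of all genes. It called no collagen in the remaining subset comparisons, where it called 0.162% of all genes in Pi16 Clec3b cells (HFHF-old against old) and 0.254% and 0.19% in Gfpt2 Tnfrsf11b cells. Both old rats lay below both young rats in 15 of the 28 collagens tested in C7 Spon1 cells (53.6%), beside 20.1% of all genes.

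Among the fibroblast subsets, the fibril-associated pair Col12a1 and Col14a1 showed its largest differences in C7 Spon1 cells. Col12a1 was at 334 and 168 CPM in young rats, 87.5 and 52.6 CPM in old rats and 371 and 302 CPM in HFHF-old rats. The old rats lay below both other groups, without overlap. Its log2 fold change was −1.82 ± 0.39 in old against young rats (edgeR adjusted p = 0.187) and 2.24 ± 0.40 in HFHF-old against old rats (edgeR adjusted p = 0.120), the latter 1.98 without HFHF-old rat 1 and 2.45 without HFHF-old rat 2. Col14a1 was at 825 and 876 CPM in young rats, 336 and 231 CPM in old rats and 759 and 554 CPM in HFHF-old rats. Here too the old rats were lowest, with log2 fold changes of −1.56 ± 0.35 and 1.19 ± 0.35 (edgeR adjusted p = 0.216 and 0.371). These comparisons share the old rats, so that a low level in those 2 rats enters both. In Pi16 Clec3b cells Col12a1 was at 474 and 210 CPM in young rats, 434 and 357 CPM in old rats and 480 and 743 CPM in HFHF-old rats, where the old rats lay within the young range.

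Col8a1 in C7 Spon1 cells was at 28.2 and 68.9 CPM in young rats, 39.9 and 21.7 CPM in old rats and 258 and 74 CPM in HFHF-old rats. Both HFHF-old rats exceeded both old rats, with a log2 fold change of 2.43 ± 0.64 (edgeR adjusted p = 0.317). It was 1.12 without HFHF-old rat 1 and 3.08 without HFHF-old rat 2. In Gfpt2 Tnfrsf11b cells, where Col8a1 was highest, HFHF-old rat 1 was at 534 CPM and HFHF-old rat 2 at 178 CPM, the latter between the old rats at 283 and 111 CPM. Summed acinar markers in C7 Spon1 cells were highest in HFHF-old rat 1 at 5872 CPM and lowest in HFHF-old rat 2 at 168 CPM, the same order as Col8a1 in these rats, and their part in its level was not tested. Col12a1 lay at 371 and 302 CPM in the same rats.

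**Figure D5:**
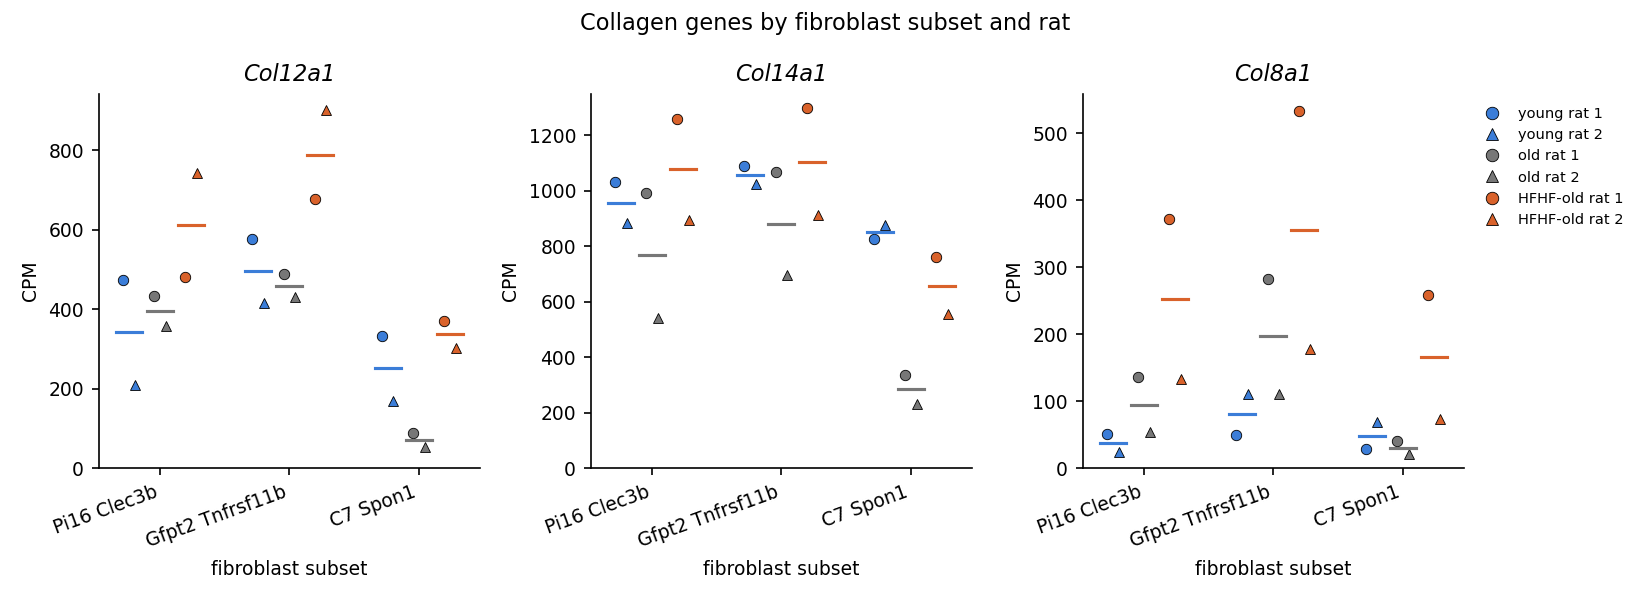
Col12a1, Col14a1 and Col8a1 in the 3 fibroblast subsets, in CPM on a linear scale. Points are single rats and short lines are group means; in C7 Spon1 cells the old rats lie lowest for Col12a1 (87.5 and 52.6 CPM) and Col14a1 (336 and 231 CPM).

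Endothelial cells were the main site of Col4a1 and Col15a1 outside the fibroblasts. Col4a1 was at 1622 and 1907 CPM in young rats, 876 and 671 CPM in old rats and 988 and 615 CPM in HFHF-old rats. Both young rats lay above all 4 rats of 20 months, with a log2 fold change of −1.20 ± 0.41 in old against young rats (edgeR adjusted p = 1) and 0.03 ± 0.40 in HFHF-old against old rats. Its partner Col4a2 was at 206 and 176 CPM, then 113 and 87.2 CPM, then 142 and 103 CPM, a log2 fold change of −0.94 ± 0.29 in old against young rats. Col15a1 was at 587 and 756 CPM in young rats, 656 and 496 CPM in old rats and 448 and 403 CPM in HFHF-old rats. For this gene the young and old rats overlapped (−0.24 ± 0.34), and both HFHF-old rats were below both old rats (−0.47 ± 0.34). Col13a1 was at 44.2 and 57.9 CPM in young rats, 149 and 45.5 CPM in old rats and 117 and 35.8 CPM in HFHF-old rats, so that the groups overlapped. The make-up of the class varied between rats. Summed lymphatic endothelial markers ran from 107 CPM in young rat 1 to 2462 CPM in HFHF-old rat 1. Macrophage markers were at 3318 CPM in HFHF-old rat 1 and 3.98 CPM in HFHF-old rat 2, and endocrine markers ran from 10.6 to 28440 CPM. Their part in the endothelial values was not tested.

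Among all 21 collagens tested in endothelial cells, none was called by edgeR or DESeq2 in either comparison. Of the 10166 genes edgeR called 0% in both, and DESeq2 0.148% in old against young and 0.0295% in HFHF-old against old rats. Unadjusted p was under 0.05 for 11 of the 21 in old against young rats and for 3 in HFHF-old against old rats (Col5a1, Col6a1 and Col14a1), against 392 and 439 of all genes, with medians of −1.57 and 0.96. The 11 became 2 without young rat 1, 4 without old rat 1 and 1 without old rat 2, and the first median −0.91 without young rat 1. The second median was −0.40 without HFHF-old rat 1 and 1.36 without HFHF-old rat 2, with 5 and 10 collagens at an unadjusted p under 0.05. Both old rats lay below both young rats in 14 of the 21 (66.7%), beside 16.8% of all genes. The 6 fibrillar genes tested were all lower in old rats with an unadjusted p under 0.05. Col3a1 was at 1389 and 528 CPM in young rats, 110 and 86.4 CPM in old rats and 632 and 19.9 CPM in HFHF-old rats. The summed levels of the 8 fibroblast markers in endothelial cells moved with it, at 2222 and 928 CPM in young rats, 778 and 461 CPM in old rats and 1770 and 258 CPM in HFHF-old rats, with all 8 markers above 0. Whether the fibrillar transcripts in this class come from fibroblast RNA was not tested.

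Mural cells could be compared only between old and young rats, since HFHF-old rat 2 had 2 such cells and HFHF-old rat 1 had 22. Old rat 1 had 23, against 304 to 350 in young rat 1, old rat 2 and young rat 2. Its mural cells held 134956 UMIs, of which 94 were of fibrillar genes, so its low levels rest on few UMIs. With marked doublets left out, it fell to 8 mural cells and 24970 UMIs. The part of doublets in its values was not tested. Of 23 collagens tested, none was called by edgeR, beside 0% of 10209 genes, 5 had an unadjusted p under 0.05 (Col1a1, Col3a1, Col6a6, Col8a1 and Col14a1) against 386 of all genes (2 without young rat 1 and 9 without old rat 2), and DESeq2 called Col1a1, which was lower in old rats, beside 0.098% of all genes. Col1a1 was at 454 and 267 CPM in young rats, 51.9 and 53.4 CPM in old rats and 103 CPM in HFHF-old rat 1, a log2 fold change of −2.72 ± 0.52 (edgeR adjusted p = 0.870). Col14a1 was at 140 and 87.2 CPM in young rats and 7.41 and 18.8 CPM in old rats, with −2.70 ± 0.55, and Col3a1 at 702 and 464 CPM and 282 and 106 CPM, with −1.74 ± 0.57. All 3 lay lower in both old rats than in both young rats. Col4a1, the type IV chain of the mural basement membrane, was at 514 and 366 CPM in young rats, 1608 and 273 CPM in old rats and 1097 CPM in HFHF-old rat 1, so that the old rats enclosed the young. Col8a1 was at 3.74 and 12.3 CPM in young and 81.5 and 28.2 CPM in old rats, with a log2 fold change of 2.43 ± 0.73. Summed endocrine markers in mural cells differed widely, from 2556 CPM in old rat 1 to 107600 CPM in old rat 2, and their part in these values was not tested.

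No test gene by gene was run in the mesothelial and epithelial classes, and their levels are given as they stand. With marked doublets left out, mesothelial cells fell from 32 to 4 in old rat 2 and from 15 to 6 in HFHF-old rat 1. Both are under the limit of 10 cells, and the part of doublets in the values of these rats was not tested. Col3a1 in mesothelial cells was at 5991 CPM in young rat 1, 2556 and 1211 CPM in the old rats and 3054 CPM in HFHF-old rat 1, with young rat 1 highest. Type IV collagen there was led by Col4a5, at 319, 185, 99.9 and 131 CPM in the same order, and Col4a4, with a median of 135 CPM over these 4 rats, and Col4a1 was at 122, 38.9, 24.0 and 39.7 CPM. In the Cftr cluster of the ductal class, Col18a1 was at 173 and 134 CPM in young rats, 165 and 123 CPM in old rats and 129 CPM in HFHF-old rat 1, and Col4a5 at 165 and 129, then 122 and 108, then 140 CPM. Col27a1 was there at 55.1 and 69.7 CPM in young rats, 99.4 and 84.4 CPM in old rats and 117 CPM in HFHF-old rat 1, so that both old rats were above both young rats. These values rest on 17 to 241 cells a rat, and HFHF-old rat 2 had 2. The Lrrc7 Rbpjl cluster had lower levels of all 3, with medians of 31.3 CPM for Col18a1, 36.1 CPM for Col4a5 and 0 CPM for Col27a1. In contrast, Col3a1 in the Cftr cluster was at 1317 and 1995 CPM in young rats and 49.7 and 32.0 CPM in old rats, an order of groups like that in fibroblast-like cells, whereas in the Lrrc7 Rbpjl cluster the groups overlapped, at 182 and 657 CPM and 376 and 75.8 CPM. In old against young rats, the log2 ratio of fibrillar to basement membrane UMIs differed by −2.77 in the whole ductal class, −1.13 in acinar and −1.74 in endocrine cells, each at the smallest exact permutation p of 0.33. It also differed by −1.38 in macrophages and −1.32 in lymphoid cells, not known as sources of fibrillar collagen. Fibrillar UMIs in old rats were at 74.3 and 46.8 CPM in acinar, 68.3 and 27.2 CPM in endocrine and 25.1 and 13.4 CPM in lymphoid cells. The part of free RNA in these values was not tested.

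In endocrine cells of the islets, Col6a6 held 14.8% of collagen UMIs, with 71.2 and 26.1 CPM in young rats, 43.8 and 29.2 CPM in old rats and 93.0 and 32.9 CPM in HFHF-old rats. These groups overlapped. The endocrine class of HFHF-old rat 2 held 10 cells. Col9a1 was at 26.1 and 6.99 CPM in young rats, 12.6 and 9.13 CPM in old rats and 29.1 CPM in HFHF-old rat 1, also with overlap. Acinar cells, the source of the digestive enzymes, had a median of 102 CPM of Col3a1, 47.9 CPM of Col1a1 and 10.1 CPM of Col4a1. Over all collagens the median was 231.7 CPM in acinar cells, beside 231.2 CPM in macrophages and 85.2 CPM in lymphoid cells. The part of free RNA in the acinar levels was not tested.

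The genes that make, process, bind and degrade collagen were described in fibroblast-like cells by the same test, from lists of which none had a called member in either comparison, beside 0.0215% of all genes in each. Of all 13963 genes, 930 in old against young and 857 in HFHF-old against old rats had an unadjusted p under 0.05. Enzymes and chaperones of collagen synthesis had 14 of 19 tested members lower in old than young rats, 0 with an unadjusted p under 0.05 by edgeR, and a median of −0.33, close to that of the collagens but smaller. Sec24d, which helps to carry procollagen out of the endoplasmic reticulum, had a log2 fold change of −0.52 ± 0.24. Genes of processing and crosslinking had 11 of 13 lower in old rats, 6 of them with an unadjusted p under 0.05, and a median of −0.68. Lox, which crosslinks fibres, had a log2 fold change of −1.61 ± 0.31 (edgeR adjusted p = 0.30) and Loxl2, of the same family, −1.49 ± 0.49. Adamts14 and Bmp1, which trim the ends of procollagen, had −1.14 ± 0.24 and −1.42 ± 0.41. Against old rats, HFHF-old rats had 11 of the same 13 higher, 4 of the list with an unadjusted p under 0.05, with a median of 0.49, and Lox had 0.85 ± 0.31, Loxl2 1.42 ± 0.49 and Adamts3 1.14 ± 0.36. Loxl2 was 0.38 without HFHF-old rat 1 and 2.01 without HFHF-old rat 2.

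Basement membrane partners had 10 of 14 lower in old rats and a median of −0.45. Sparc, a collagen-binding matrix protein, had a log2 fold change of −2.11 ± 0.71, and Nid1, which links laminin to type IV collagen, −1.25 ± 0.48. Lama1, a laminin chain, stood against these with 3.40 ± 1.25 (1.29 without young rat 1 and 4.75 without young rat 2), followed by −2.60 ± 0.98 in HFHF-old against old rats, and Nid2 gave 0.76 ± 0.38 and −1.79 ± 0.39. Without HFHF-old rat 1 the latter values were −3.24 for Lama1 and −2.36 for Nid2, which then passed the call, and without HFHF-old rat 2 they were −2.31 and −1.41. Fibril partners had 6 of 10 lower in old rats with a median of −0.21, and Fbn1, the fibrillin of microfibrils, had −1.31 ± 0.52. Of the collagen receptors 5 of 8 were lower in old rats with a median of −0.09, and Itga2, the collagen-binding integrin chain, had −1.48 ± 0.37, with 1.07 ± 0.36 in HFHF-old against old rats. The degradation list had 6 of 8 lower in old rats and a median of −0.40, with −0.93 ± 0.25 for Mmp14, a membrane-bound collagenase. In HFHF-old against old rats the medians were 0.32 for synthesis, 0.01 for basement membrane partners, 0.09 for fibril partners, 0.17 for receptors and 0.36 for degradation, beside 0.02 for all genes. Without HFHF-old rat 1 they were −0.51, −0.64, −0.59, 0.20 and 0.0638, and 0.27 for processing and crosslinking. Without HFHF-old rat 2 they were 0.74, 0.23, 0.24, −0.0871 and 0.61, and 0.76 for processing and crosslinking. The receptor median in old against young rats also turned, to 0.31 without young rat 1 and 0.0305 without old rat 2. Of the partner genes named here, DESeq2 called Lox, Adamts14, Sparc, Itga2 and Mmp14 lower in old than young rats, beside 1.15% of all genes, and Nid2 lower in HFHF-old than old rats, beside 0.859%.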

How the data were processed

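Single cells of the pancreas of 6 rats were sequenced with 10x Genomics 3′ chemistry, 1 library a rat. The deposited matrices hold raw UMI counts per gene and cell barcode, made by the authors with Cell Ranger on the rat genome Rnor_6.0 and not normalized, and samples were grouped by the labels. The collagen genes and lists were chosen with earlier results of these data known. As in the methods of the study, barcodes with under 200 genes, in the top 1% of gene number or with over 25% mitochondrial UMIs were removed, which left 75201 of 78024, a number other than that of the study. Counts were scaled to 10000 per cell, and 2000 variable genes without the 125 listed genes gave 10 principal components (20 for fibroblasts), 15 neighbours and Leiden clusters (leidenalg 0.10.2, resolution 1). Clusters were named from at least 3 fixed markers. Some were left unnamed for few UMIs or for cells from 1 library. Among these was a cluster of 1075 cells, all from 1 library, that scored best as mural and is not in the mural values. Simulated doublets marked 8113 cells, which were kept in the main results and left out in an alternative.

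UMI counts were summed per rat and class with at least 10 cells and tested with edgeR 4.0.16 (TMM, filterByExpr, quasi-likelihood F test) on all 6 rats, with Benjamini-Hochberg adjustment over all genes tested. Genes were called at an adjusted p under 0.05 with a change of over 1.5-fold. DESeq2 1.42.0 on the same sums was an alternative, and the script was tested on simulated data. The fibrillar to basement membrane ratio was compared by an exact permutation test. Genes named with values hold at least 1% of the collagen UMIs of a class, or are called, or are among up to 4 of each list with the largest fold change in fibroblast-like cells, and other members are named to account for all 43. For free RNA, the mean profile of lymphoid cells was scaled by acinar and endocrine markers and subtracted. Other alternatives were RLE factors, no low count filter, resolution 2, at least 30 cells, a replicate block and each rat left out. Library size only, bias-adjusted quasi-likelihood, the 3 named subsets only and cells with at least 2000 UMIs were added after seeing the data, as was the split of the ductal class by cluster.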

Additional observations from a re-analysis of the deposited data

Results flagged for a closer look

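In 6 cases, of 4 genes in 4 pairs of cell classes, both rats of a group moved one way in the first class and the opposite way in the second, under the same contrast, and none of these differences was tested. The share of all genes with such opposite moves was not counted, so the cases are not read as a trait of collagens. In 1 direction alone, 20.1% of all genes in C7 Spon1 cells had both old rats below both young rats. Col6a6 in old against young rats had log2 fold changes of 0.86 in C7 Spon1 cells and −1.31 in Gfpt2 Tnfrsf11b cells, which are 2.17 apart, with medians of 165 and 5.93 CPM. In mural cells Col6a6 had 2.97, which is 4.28 from the value in Gfpt2 Tnfrsf11b cells, but old rat 1 gave 156 CPM from 23 cells, and the mural value was −0.41 with doublets left out, when that rat had too few cells. Col16a1, a fibril-associated collagen, had 1.49 in mural cells and −0.80 in Gfpt2 Tnfrsf11b cells, 2.29 apart.

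In HFHF-old against old rats, Col4a1 had 0.19 in Pi16 Clec3b cells and −0.49 in C7 Spon1 cells, 0.68 apart, and the former was −0.0419 with free RNA subtracted. Col4a5 had 0.55 in Pi16 Clec3b cells and −0.74 in C7 Spon1 cells, 1.28 apart. In endothelial cells Col4a5 had 1.99, 2.73 from the value in C7 Spon1 cells, at levels of 6.92 and 8.20 CPM in old rats and 12.6 and 50.4 CPM in HFHF-old rats. The endothelial value was 2.64 without HFHF-old rat 1 and 0.71 without HFHF-old rat 2.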

How the results depend on the processing

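The count of collagens called was 0 by edgeR in all 11 comparisons and moved with the tool and the filter. DESeq2 gave 2 (old against young) and 1 (HFHF-old against old) in fibroblast-like cells, 1 in Pi16 Clec3b cells (old against young), 2 and 2 in C7 Spon1 cells and 1 in mural cells. With no low count filter edgeR gave 7 and 2 in fibroblast-like, 4 and 1 in Pi16 Clec3b, 5 in Gfpt2 Tnfrsf11b (old against young), 8 and 3 in C7 Spon1, 10 and 6 in endothelial and 4 in mural cells. The cause was not tested. Over all genes, edgeR without the filter called 0.457% to 2.52% in these comparisons. Over all genes in fibroblast-like cells, edgeR called 3 in old against young rats, DESeq2 160 and edgeR without the filter 548, and in HFHF-old against old rats 3, 120 and 514. Of 182 alternative counts of called collagens 159 were 0 like the main count. Leaving out 1 rat at a time gave 0 to 3 and 0 to 1 called collagens in Pi16 Clec3b cells (3 in old against young rats without HFHF-old rat 1 and also without HFHF-old rat 2, 1 in HFHF-old against old rats without HFHF-old rat 1), 0 to 2 in C7 Spon1 cells in old against young rats (2 without HFHF-old rat 1, 1 without HFHF-old rat 2), 0 to 4 in mural cells (4 without young rat 2, 1 without old rat 2) and 0 in the remaining comparisons, beside 0% to 1.27% of all genes over these fits. A lone rat left in a group was then taken to vary like the others.

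The fibrillar to basement membrane difference in old against young rats ranged from −2.62 to −1.79 with a rat left out and was −2.46 for Col1a1, Col1a2 and Col3a1 over Col4a1 and Col4a2. In HFHF-old against old rats it ranged from −0.57 to 2.14 and reversed to −0.57 without HFHF-old rat 1. Collagen in mural cells had a median of 3563 CPM over rats and 2295 CPM with doublets left out, when old rat 1 had under 10 cells.

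The subtraction for free RNA took 58.3% to 74.2% of all UMIs of fibroblast-like cells but 0.279% to 0.985% of fibrillar UMIs, so it could hardly move the ratio and is no test of it. It takes away the whole lymphoid profile, with transcripts that lymphoid cells make themselves. The share taken is thus no measure of free RNA, and all values given with free RNA subtracted carry this limit. Of 79 log2 fold changes of single genes, 70 kept their sign under all alternatives run. In fibroblast-like cells old against young, Col4a2 was −0.80 to 0.0856 with a rat left out (positive without old rat 2), and Col6a1 was −0.92 to 0.35 (0.31 without young rat 2 and 0.35 without old rat 2). In HFHF-old against old rats with a rat left out, Col1a1 was −1.35 to 1.82 and Col3a1 −1.21 to 1.60 in fibroblast-like cells, and Col3a1 was −2.37 to 2.68 in endothelial cells, each negative without HFHF-old rat 1. Endothelial Col4a1 was −0.0135 with no low count filter, −0.0996 with free RNA subtracted and −0.40 to 0.34 with a rat left out (negative without old rat 2 or HFHF-old rat 1), and Pi16 Clec3b Col4a1 was −0.0419 with free RNA subtracted. Mural Col4a1 was −0.49 to 1.59 with a rat left out (negative without old rat 1), −0.48 with at least 30 cells and −0.22 with doublets left out, and mural Col6a6 was −0.41 with doublets left out.

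Replicate numbers name different rats. Deviations of same-numbered rats correlated at 0.02 (young and old), −0.18 (young and HFHF-old) and 0.15 (old and HFHF-old), so the numbers give no pairing. With the replicate number as a block, 0 collagens were called in all 11 comparisons, beside 0% to 0.072% of all genes. Mural cells in HFHF-old against old rats were not tested. With 2 rats a group, a difference under the spread of single rats was not detectable.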
